A study of Mus musculus with 4 samples.

Results

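The Iroquois homeobox genes were described in sorted Tbx1-lineage cells of mouse embryos. The 6 members, Irx1, Irx2, Irx3, Irx4, Irx5 and Irx6, were taken by name and matched by their Ensembl identifiers in the 4 deposited gene tables. They were 6 of the 27514 genes that all 4 tables list, and the rule used no measured value. Swiss Webster embryos carried the Tbx1Cre knock-in allele, which inactivates the Tbx1 copy it sits in and drives Cre in Tbx1-expressing cells, together with a Rosa26-GFPflox reporter. The 4 groups were Ctrl (Tbx1Cre/+;Rosa26-GFPflox/+) and cKO (Tbx1Cre/flox;Rosa26-GFPflox/+), each at embryonic day E8.5 and at E9.5. At E8.5 the upper part of the body was taken. At E9.5 the pharyngeal apparatus with the heart was taken, and the paper's sample summary lists the back with them. Ctrl embryos were therefore heterozygous for Tbx1, and all groups carried Cre and the reporter. GFP-positive, viable cells from pooled embryos were sorted and profiled by droplet 3′ single-cell RNA-seq, in which each unique molecular identifier (UMI) counts 1 captured transcript end. There was 1 library per group. No difference below has a replicate check, and every 95% interval given covers counting error only.

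Iroquois proteins are transcription factors of the TALE class, homeodomain proteins with an extra loop of 3 amino acids. In mammals the genes lie in clusters of 3, with Irx1, Irx2 and Irx4 in one cluster and Irx3, Irx5 and Irx6 in the other, and neighbouring members often share regulatory landscapes. They are known for patterning the neural plate, the surface ectoderm, the limb and the heart. In the heart Irx4 marks ventricular myocardium, and Irx3 and Irx5 act in the ventricular conduction system and in the transmural gradient of repolarization. Tbx1, a T-box factor of the pharyngeal apparatus, is the gene targeted in the cKO embryos.

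In GRCm38.p6 coordinates, the first cluster lies on chromosome 13, with Irx1 (ENSMUSG00000060969) at 71958232 to 71963723, Irx2 (ENSMUSG00000001504) at 72624430 to 72634196 and Irx4 (ENSMUSG00000021604) at 73259589 to 73269622. The second lies on chromosome 8, with Irx3 (ENSMUSG00000031734) at 91798511 to 91801654, Irx5 (ENSMUSG00000031737) at 92357796 to 92361456 and Irx6 (ENSMUSG00000031738) at 92674289 to 92680956. The next annotated gene to Irx3 on the far side from Irx5 is Fto, 130077 bases away. Of the 6 members, 3 had an entry in the RefSeq promoter table, and their sequences are shown as a description. Each runs over the 250 bases before the transcript start of the table, 5′ to 3′ on the gene's strand, and capitals mark CpG dinucleotides, the letters on which CpG islands are built. The window of Irx2 is chr13:72628570-72628819 on the plus strand, that of Irx4 chr13:73260247-73260496 on the plus strand and that of Irx3 chr8:91801655-91801904 on the minus strand (GRCm38.p6). The Irx2 and Irx4 windows fall inside the annotated gene spans, which begin farther upstream.
Irx2: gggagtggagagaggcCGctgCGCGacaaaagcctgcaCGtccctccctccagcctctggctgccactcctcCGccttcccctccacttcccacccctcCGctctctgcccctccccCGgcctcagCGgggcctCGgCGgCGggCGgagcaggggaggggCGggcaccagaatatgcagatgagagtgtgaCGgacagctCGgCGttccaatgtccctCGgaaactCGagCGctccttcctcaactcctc
Irx4: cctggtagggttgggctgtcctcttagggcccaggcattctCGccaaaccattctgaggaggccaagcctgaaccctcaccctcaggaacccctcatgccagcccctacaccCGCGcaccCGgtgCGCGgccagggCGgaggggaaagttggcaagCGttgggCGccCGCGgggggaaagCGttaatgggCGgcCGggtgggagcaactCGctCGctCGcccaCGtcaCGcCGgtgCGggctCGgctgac
Irx3: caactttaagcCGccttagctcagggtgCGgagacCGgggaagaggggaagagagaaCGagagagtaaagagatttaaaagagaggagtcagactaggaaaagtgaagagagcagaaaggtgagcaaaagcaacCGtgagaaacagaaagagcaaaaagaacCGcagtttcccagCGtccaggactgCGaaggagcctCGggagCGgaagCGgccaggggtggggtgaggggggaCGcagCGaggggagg
The Irx2 window held 19 CpG, the Irx4 window 22 and the Irx3 window 13, against a median of 6 over all 27025 windows of the table. Of all windows, 80.4%, 85.4% and 68.2%, respectively, held fewer CpG. Their GC content was 68.4%, 68.8% and 56%, against a median of 52%. On both strands, none of the 3 windows held the T-box half-site GGTGTGA, found in 3.31% of all windows, or the palindromic Iroquois site ACANNTGT, found in 6.29%, which says only that these letters were not in these windows. Irx1, Irx5 and Irx6 had no entry in the table.

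The E8.5 libraries held 1434 Ctrl and 1090 cKO cells and those of E9.5 held 5453 and 6266, with median depths of 15910.5 to 23984 UMIs per cell. Any pair of libraries shared 2 to 55 cell barcodes, at most 1.01% of the smaller library. Tbx1 itself did not follow the labels. Its level, in UMIs per 1000000 UMIs of the shared genes (UPM), was 118 in cKO E8.5 against 86.4 in Ctrl E8.5 and 134 in cKO E9.5 against 104 in Ctrl E9.5, so that it was higher in both libraries labelled cKO. UMIs at the 3′ end do not show whether the floxed part is present in a transcript. The libraries are therefore named by their labels throughout. The gene table of cKO E9.5 was a different one, with 31053 genes against 27998, and Crnde, the gene next to Irx5 that shares its locus, was not listed in it while holding 331 to 670 UMIs in the other 3 libraries. Genotype, gene table and library cannot be told apart at E9.5. Likewise, stage, dissection and library cannot be told apart.

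Cells were placed in groups by panels of marker genes, none of them an Iroquois gene, and a cell had to hold UMIs of at least 50% and at least 3 of a panel's markers. Groups are called by panel, as in "multilineage progenitor-like" (MLP-like, from Arg1, Rdh10 and Vamp8), and values are given for groups of at least 30 cells. Markers kept out of the gates were raised in epithelial-like, endothelial-like, cardiomyocyte-like and neuroepithelial-like cells. In MLP-like cells Aplnr and Nrg1 were 1.13 and 0.515 log2 units above the rest in Ctrl E8.5, and 1.40 and 1.51 in Ctrl E9.5. Posterior second heart field markers there summed to 109 UPM in Ctrl E8.5 and 224 in Ctrl E9.5, and somitic markers to 272 and 114. The MLP-like cells of the 2 stages thus differed in make-up, and its part in the stage values was not tested. They were not raised in branchiomeric muscle-like cells (Myog, Chrna1, Ebf3) and little raised in mesenchyme-like and aSHF-like (anterior second heart field) cells at E8.5, so these names rest on the gate markers alone. In endodermal-like cells 1 of 4, Spink1, was raised, while Sox17, Hhex and Trh were not. The cardiomyocyte gate came before those of the progenitor, heart field, branchiomeric muscle, somitic and mesenchyme panels. Of cardiomyocyte-like cells, only 9 of 86 in Ctrl E8.5 and 1 of 62 in cKO E8.5 passed no such later gate. At E9.5 these were 12 of 207 in Ctrl and 14 of 133 in cKO. This group is thus set apart largely by the order of the gates.

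Over all cells, Irx3 gave the most UMIs of the family in every library. Irx3 was at 100 UPM in Ctrl and 114 in cKO at E8.5 (2525 and 2931 UMIs), and at 89.5 in Ctrl and 60.8 in cKO at E9.5 (8435 and 6357 UMIs). Irx5, its neighbour in the cluster, was at 53.5, 50.8, 44.3 and 27 UPM in the same order. Irx1 was at 50.6, 40.4, 38.3 and 23.4 UPM. For these 3 genes the cKO E9.5 library was the lowest of the 4, and in such sums over a library fewer cells of a type and less RNA per cell cannot be told apart. Irx2 had another order, lowest in Ctrl E8.5 at 12.7 UPM, then 18.2 in cKO E9.5, 19.4 in cKO E8.5 and 22.5 in Ctrl E9.5. The remaining members were rare. Irx4 held 14, 11, 97 and 115 UMIs in the 4 libraries, and Irx6 held 3, 6, 26 and 52, all of them between 0.119 and 1.10 UPM. Irx4 was seen in 10 to 101 cells per library and Irx6 in 2 to 41, mostly as single UMIs.

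**Figure D1:**
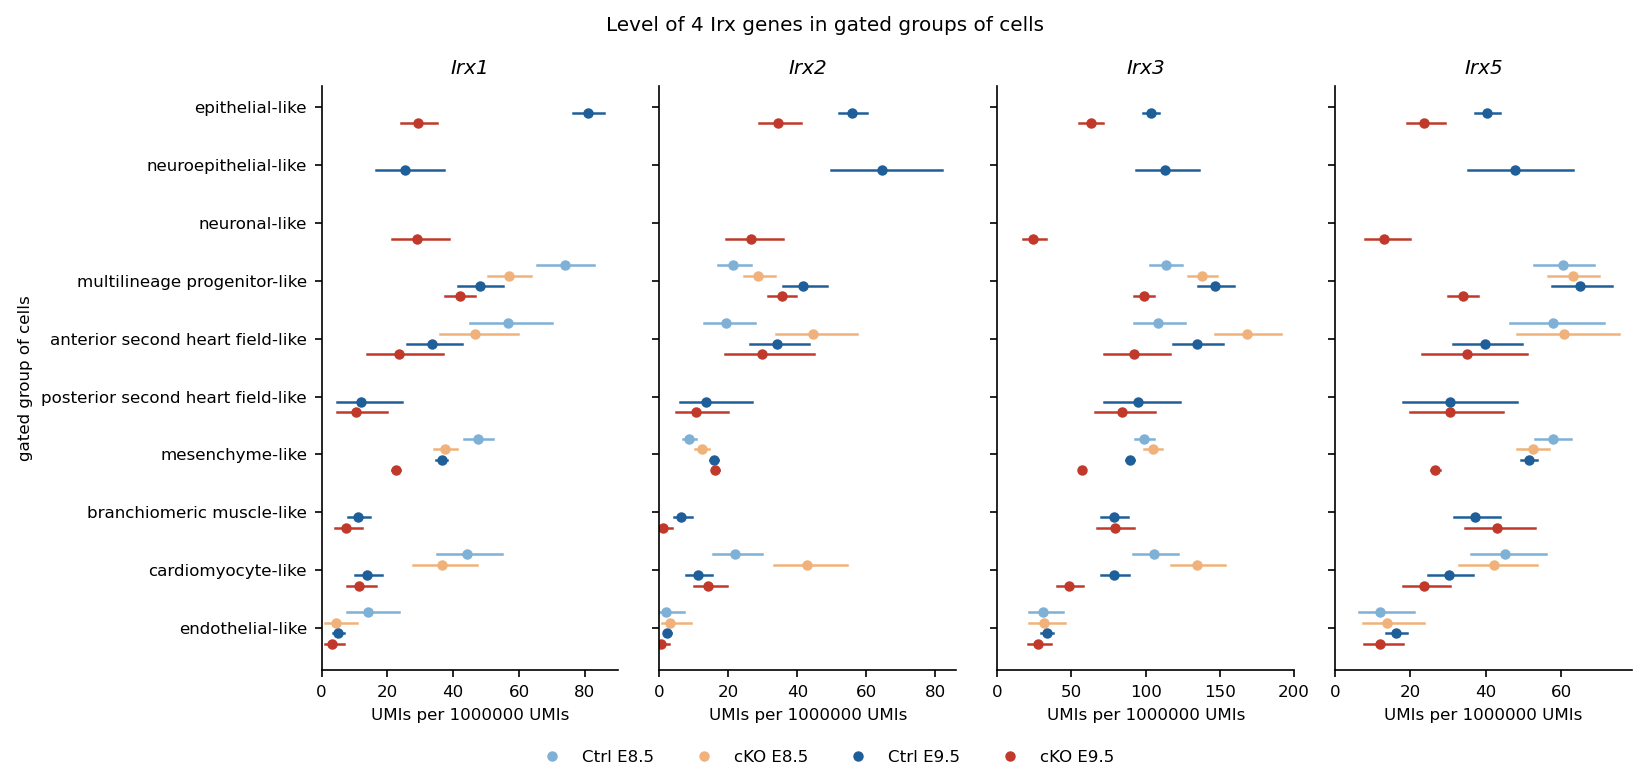
Level of Irx1, Irx2, Irx3 and Irx5 in UMIs per 1000000 UMIs (horizontal axis) in each gated group of cells (vertical axis), with 1 point per library and exact Poisson 95% intervals of the counts as bars. Endothelial-like cells are lowest or close to lowest in all 4 panels, where in cKO E9.5 the neuronal-like Irx3 point lies below theirs (24.1 against 27.6) and the branchiomeric muscle-like Irx2 point beside theirs, and the Ctrl E9.5 epithelial-like point for Irx1 stands at 81.0.

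Among the groups of Ctrl E9.5, Irx1 was highest in epithelial-like cells outside the endodermal and otic gates (called other epithelial-like), at 88.9 UPM (95% interval 83.5 to 94.5, 599 cells). The next groups were MLP-like cells at 48.1, endodermal-like cells at 38.4, mesenchyme-like cells at 36.5, aSHF-like cells at 33.5 and neuroepithelial-like cells at 25.4, and the intervals of neighbours in this order overlapped. Cardiomyocyte-like cells, branchiomeric muscle-like cells and cells with the posterior second heart field panel (pSHF-like) followed with 13.7, 11 and 11.9 UPM, again overlapping. Endothelial-like cells, at 4.94 UPM, were lowest, apart from all of them but the few pSHF-like cells, whose interval of 4.77 to 24.5 overlapped theirs. Epithelial-like cells therefore held the top level of Irx1, and the muscle, pSHF-like and endothelial-like groups the bottom.

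Irx2 was highest in neuroepithelial-like cells, the precursors of neurons, at 64.5 UPM (49.9 to 82.0, 57 cells), which overlapped the 58.7 UPM of the other epithelial-like and the 50.3 UPM of the endodermal-like cells. It stood at 41.7 UPM in MLP-like and 34.1 in aSHF-like cells. In mesenchyme-like cells, the group with the most cells, it was at 15.9 UPM, and in branchiomeric muscle-like cells at 6.38. Endothelial-like cells held 17 Irx2 UMIs over 398 cells, or 2.10 UPM.

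Irx3 had a flatter distribution. In Ctrl E9.5 it ran from 147 UPM in MLP-like cells (136 to 159) over 135 in aSHF-like, 113 in neuroepithelial-like, 111 in other epithelial-like, 95 in pSHF-like, 89.7 in mesenchyme-like, 79.0 in cardiomyocyte-like and 78.6 in branchiomeric muscle-like cells, each overlapping the next. Endodermal-like cells at 52.2 UPM and endothelial-like cells at 33.6 UPM were apart below. Irx5 was at 65.2 UPM in MLP-like cells, 51.5 in mesenchyme-like, 47.9 in neuroepithelial-like and 43.3 in other epithelial-like cells, and at 16.2 in endothelial-like cells. Both genes thus had their top level in the MLP-like group, and Irx5 was at 37.2 UPM in branchiomeric muscle-like and 30.3 in cardiomyocyte-like cells, which overlapped.

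At E8.5 the groups large enough to be given were MLP-like, aSHF-like, cardiomyocyte-like, mesenchyme-like and endothelial-like. In Ctrl E8.5, Irx1 stood at 73.8 UPM in MLP-like cells (286 UMIs), 56.5 in aSHF-like, 47.6 in mesenchyme-like and 44.1 in cardiomyocyte-like cells. Irx3 was at 114, 108, 99.2 and 106 UPM in these same groups and Irx5 at 60.4, 57.9, 57.8 and 45.2. For Irx3, neighbours in the order of these 4 groups overlapped, and endothelial-like cells were apart with 31.1 UPM. In cKO E8.5 the top Irx3 group was aSHF-like, at 168 UPM (147 to 192), overlapping MLP-like cells at 138 UPM.

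In shares of cells, each cell was thinned to 10000 UMIs, which left out 135, 84, 555 and 718 shallower cells of Ctrl E8.5, cKO E8.5, Ctrl E9.5 and cKO E9.5. At least 1 Iroquois UMI was then found in 81.1%, 79.4%, 72.4% and 62.7% of cells (87.6%, 87.1%, 80.4% and 72.2% unthinned). Endothelial-like cells, the lowest group, gave 42.6%, 41.7%, 37.1% and 33.7%, and serve as an upper estimate of the background from free RNA. In Ctrl E9.5, Irx3 was found in 73.1% of MLP-like cells and 53.4% of mesenchyme-like cells, against 25.5% of endothelial-like cells, at median depths of 17150, 15780 and 19950 UMIs. Irx1 was found in 43.4% of epithelial-like cells, 35.6% of MLP-like and 26.8% of mesenchyme-like cells against 3.49% of endothelial-like cells. Irx1 and Irx3 were thus found in more cells of these groups than of the endothelial-like group. Of all thinned cells of Ctrl E9.5, 27.6% held none of the 6 genes, 33.9% held 1, 24.99% held 2, 11.25% held 3 and 2.23% held 4.

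At E8.5, the library labelled cKO, whose embryos had a floxed Tbx1 allele in place of the wild-type one, was compared with Ctrl. The paper lists slightly more somites for the cKO than for the Ctrl embryos of E8.5. Genotype, somite stage and library therefore cannot be told apart in the E8.5 values. Members of the same cluster went opposite ways. Irx1 was lower, at 40.4 against 50.6 UPM (log2 ratio −0.33, 95% interval −0.44 to −0.21). Irx2 was higher, at 19.4 against 12.7 UPM (0.61, 0.41 to 0.82). In the other cluster Irx3 was at 114 against 100 UPM (0.19, 0.11 to 0.26) and Irx5 at 50.8 against 53.5 (−0.07, −0.19 to 0.04). With 11 against 14 UMIs for Irx4 and 6 against 3 for Irx6, the depth did not allow a difference to be seen in the rare members. None of the 5 members with at least 20 UMIs passed 2-fold, where 2.92% of 12762 genes were higher and 1.30% lower by 2-fold. The median log2 ratio of all genes was 0.04.

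The direction of Irx1 and of Irx2 was shared by the 4 named groups outside the endothelial-like cells at E8.5. Irx1 had log2 ratios of −0.38 (−0.61 to −0.14) in MLP-like cells, −0.34 (−0.53 to −0.15) in mesenchyme-like cells, −0.27 (−0.78 to 0.24) in cardiomyocyte-like and −0.28 (−0.77 to 0.21) in aSHF-like cells, where the latter 2 intervals included 0. With 2 UMIs asked of each gate marker the MLP-like value was −0.08. Irx2 was at 28.7 against 21.4 UPM in MLP-like cells (0.42, 0.03 to 0.82) and 12.3 against 8.46 UPM in mesenchyme-like cells (0.54, 0.14 to 0.95). In cardiomyocyte-like cells Irx2 was at 42.9 against 21.8 UPM (0.98, 0.39 to 1.58). There anterior second heart field markers summed to 839 against 543 UPM, somitic markers to 54.3 against 106 and neuroepithelial markers to 24.6 against 15.8. Endodermal markers were at 11.5 against 5.94 UPM in MLP-like cells, and cardiomyocyte markers at 46.1 against 88.5 in mesenchyme-like cells. The part of these classes in the Irx values was not tested. Irx2 was thus higher in the cKO library in the MLP-like, mesenchyme-like and cardiomyocyte-like groups alike.

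In aSHF-like cells, progenitors that feed the outflow tract, Irx2 held 60 UMIs in cKO E8.5 and 29 in Ctrl E8.5, or 44.4 against 19.3 UPM (1.2, 0.54 to 1.90). It was the 1 of 4 measured members past 2-fold there, where 3.88% of all genes were higher by that much, but with 2 UMIs asked of each gate marker the log2 ratio was 0.41. Irx3 in the same cells was at 168 against 108 UPM (0.63, 0.34 to 0.93). Irx5 in these cells did not differ beyond counting error, at 60.7 against 57.9 UPM (0.07, −0.38 to 0.52). In the same cells somitic markers summed to 113 UPM in cKO and 56.5 in Ctrl, endodermal markers to 12.6 and 4.66 and neuronal markers to 10.4 and 3.99, and their part in the Irx values was not tested.

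At E9.5 the 4 abundant members were all lower in the library labelled cKO. Irx1 was at 23.4 against 38.3 UPM (−0.71, −0.78 to −0.64) and Irx5 at 27 against 44.3 UPM (−0.71, −0.78 to −0.64). Irx3 was at 60.8 against 89.5 UPM (−0.56, −0.61 to −0.51). Irx2 was at 18.2 against 22.5 UPM (−0.31, −0.40 to −0.22). Most genes of this comparison leaned the same way, with a median log2 ratio of −0.26 over all genes and 71.5% of genes below 0. Relative to that median the values were −0.45 for Irx1, −0.46 for Irx5, −0.30 for Irx3 and −0.05 for Irx2, so that Irx2 lay at the level of the typical gene. The make-up of the libraries also differed, with mesenchyme-like cells at 55.5% of Ctrl and 71.1% of cKO cells and epithelial-like cells at 13.1% and 3.03%, and with the classes weighted as in Ctrl the Irx1 ratio was −0.84. No member of 6 passed 2-fold, where 9.80% of 15130 genes were lower and 3.56% higher by 2-fold. Irx4 was at 1.10 against 1.03 UPM (0.10, −0.31 to 0.50), and Irx6 at 0.497 against 0.276 UPM (0.85, 0.14 to 1.59).

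**Figure D2:**
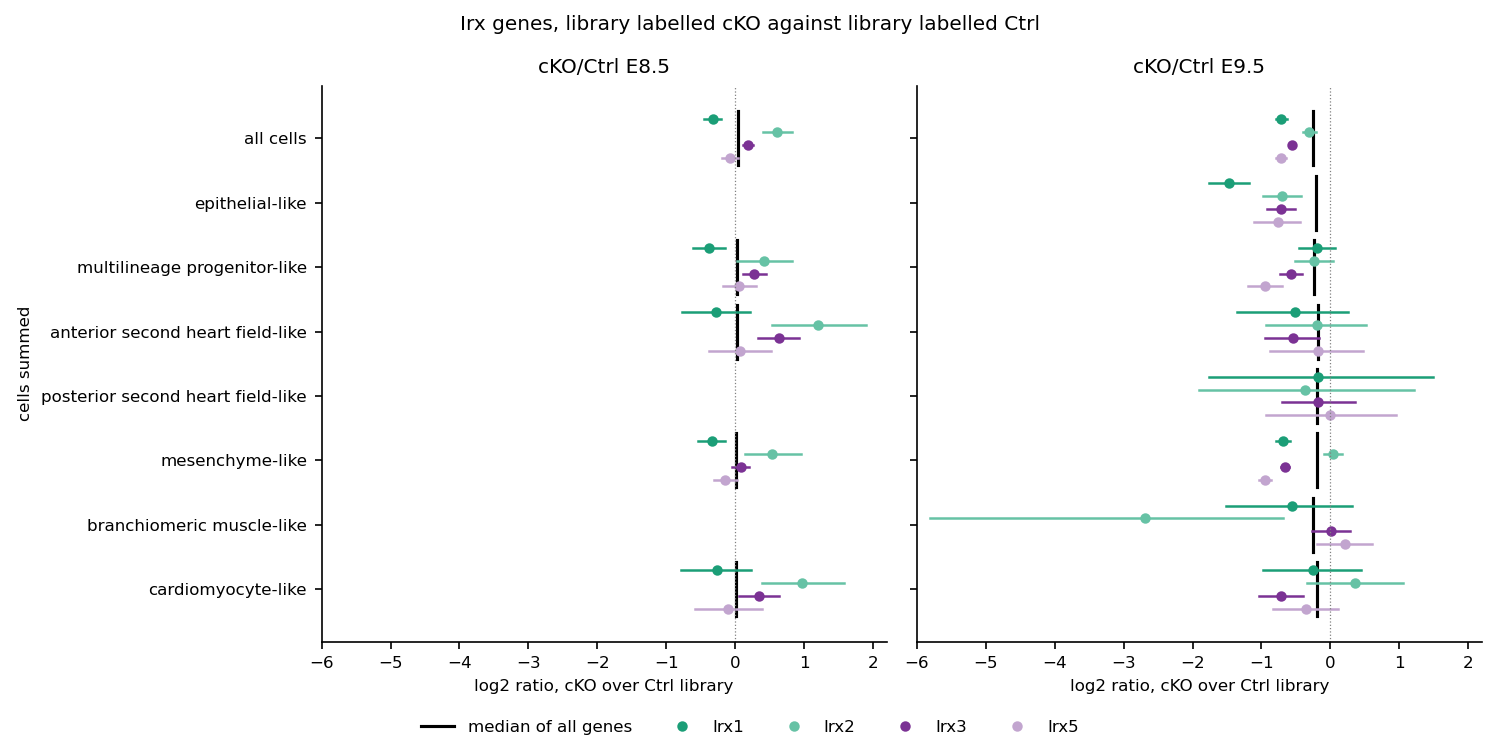
Log2 ratio of the library labelled cKO over Ctrl (horizontal axis) for Irx1, Irx2, Irx3 and Irx5 in all cells and in each gated group (vertical axis) at E8.5 and E9.5, with exact 95% intervals for counting error. Black ticks mark the median of all genes, which is 0.04 at E8.5 and −0.26 at E9.5 over all cells, and Irx1 in epithelial-like cells lies lowest of the well-counted points, at −1.47.

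Epithelial-like cells, 712 in the E9.5 Ctrl library and 190 in that of cKO, showed the largest difference in Irx1 among the named groups. Irx1 was at 81.0 UPM in Ctrl (1105 UMIs) and 29.2 in cKO (111 UMIs), a log2 ratio of −1.47 (−1.77 to −1.19). After thinning, 43.4% of Ctrl and 22.8% of cKO epithelial-like cells held an Irx1 UMI, with intervals of 39.6% to 47.2% and 17.0% to 29.6%. Irx2 in the same cells was at 34.5 against 56.0 UPM (−0.70, −0.98 to −0.43). Irx3 was at 63.0 against 103 UPM (−0.72, −0.92 to −0.52), and Irx5 at 23.7 against 40.3 UPM (−0.77, −1.11 to −0.44). Of 5 measured members Irx1 was the 1 past 2-fold, where 6.28% of genes were lower by 2-fold and the median of all genes was −0.21.

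The make-up of the epithelial-like group differed between these libraries. All 6 epithelial gate markers were present in both, summing to 1171 UPM in Ctrl and 1048 in cKO. Endodermal markers summed to 175 UPM over 6 of 6 detected in Ctrl and 91.7 UPM over 5 of 6 in cKO, and neuronal markers to 15.9 and 61.9 UPM. Otic markers summed to 61.3 and 40.6 UPM and endothelial markers to 6.60 and 10.0. These were the 4 of 15 marker classes whose sums reached 10 UPM in either library and differed by over 1.5 times. Their part in the Irx difference was not tested. With endodermal-like and otic-like cells left out, Irx1 was at 88.9 and 29.5 UPM, a log2 ratio of −1.59 (−1.90 to −1.30). The cells kept were 599 of the 712 in Ctrl and 174 of the 190 in cKO. This value rests on mostly the same cells and is no test of the make-up.

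In MLP-like cells, 230 in the E9.5 Ctrl library and 451 in that of cKO, the clusters differed. Irx5 was at 33.9 UPM in cKO against 65.2 in Ctrl (−0.94, −1.19 to −0.70), and Irx3 at 98.9 against 147 UPM (−0.57, −0.73 to −0.42). Irx1 was at 41.9 against 48.1 UPM (−0.20, −0.45 to 0.06) and Irx2 at 35.4 against 41.7 UPM (−0.24, −0.51 to 0.04). For the latter pair the difference was not detectable beyond counting error and lay at the median of all genes in these cells, −0.24, and their log2 ratios became 0.04 and 0.00 with TMM scaling. Summed over clusters, Irx3, Irx5 and Irx6 had a log2 ratio of −0.68 (−0.81 to −0.55) and Irx1, Irx2 and Irx4 one of −0.21 (−0.40 to −0.02), which turned to 0.03 with TMM scaling. Anterior second heart field markers were also lower in the cKO MLP-like cells, at a sum of 185 against 418 UPM, and cardiomyocyte markers at 162 against 258. Somitic markers were higher, at 249 against 114 UPM, as were otic markers at 15.7 against 2.44 and neuronal markers at 19.8 against 12.4, and endodermal markers were at 7.47 against 11.5. The part of these 6 of 15 classes in the Irx values was not tested.

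Mesenchyme-like cells, 3024 and 4456 in the E9.5 Ctrl and cKO libraries, gave the most precise values. Irx5 was at 26.6 against 51.5 UPM (−0.95, −1.04 to −0.86), Irx1 at 22.6 against 36.5 UPM (−0.69, −0.79 to −0.59) and Irx3 at 56.9 against 89.7 UPM (−0.66, −0.72 to −0.59). Irx2 did not follow them, at 16.2 against 15.9 UPM (0.03, −0.10 to 0.16). Irx4 was at 1.36 against 0.904 UPM, from 99 and 45 UMIs (0.59, 0.07 to 1.13). The median of all genes in these cells was −0.20, and with TMM scaling Irx2 was at 0.22 and Irx1 at −0.50. Within 1 cluster, then, Irx1 was lower in the library labelled cKO and below the typical gene, while Irx2 was level only in unscaled totals and lay above the typical gene, as did Irx4. The share of cells with an Irx5 UMI after thinning was 37.5% in Ctrl and 21.8% in cKO, and that for Irx2 was 11.9% and 12.5%. Of 15 marker classes 4 differed by the above rule in mesenchyme-like cells. Somitic markers summed to 67.0 UPM in Ctrl and 134.6 in cKO, MLP markers to 68.8 and 115.2, endothelial markers to 17.6 and 28.9 and neuronal markers to 9.86 and 18.5, against 1057 and 1114 for the 6 mesenchyme markers themselves. Their part in the Irx values was not tested.

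Other groups had wider intervals. In cardiomyocyte-like cells Irx3 was at 48.2 against 79.0 UPM (−0.71, −1.03 to −0.40), and at −0.35 with 2 UMIs asked of each gate marker. In aSHF-like cells Irx3 was at 92.2 against 135 UPM (−0.55, −0.95 to −0.16), and at −0.97 with the stricter markers. In the former cells somitic markers summed to 29.3 UPM in cKO and 15.5 in Ctrl, and neuronal markers to 17.8 and 9.04. In the latter, somitic markers summed to 94.8 and 26.3 UPM and branchiomeric muscle markers to 93.5 and 195. Epithelial markers were there at 37.7 and 23.2, endothelial at 27.3 and 13.9 and neuronal at 22.1 and 12.9. The part of these classes in the Irx values was not tested. In branchiomeric muscle-like cells, the skeletal muscle precursors of the arches, Irx3 was at 79.2 against 78.6 UPM (0.01, −0.27 to 0.29, and −0.27 with the stricter markers) and Irx5 at 43.0 against 37.2 UPM (0.21, −0.19 to 0.60), above the group's median over all genes of −0.25. No difference in Irx3 was thus detectable in branchiomeric muscle-like cells, in contrast to its value in mesenchyme-like cells, whose interval lay wholly below. In pSHF-like cells, 31 and 48 of them, all 4 intervals included 0. There 5 of 15 marker classes differed by the above rule, among them the markers of the gate itself, at 717 UPM in cKO and 1079 in Ctrl. Their part was not tested.

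Irx6 was the member whose few UMIs were most unevenly spread. Branchiomeric muscle-like cells were 3.41% of Ctrl and 1.71% of cKO cells at E9.5 and held 12 of the 26 and 22 of the 52 Irx6 UMIs of these libraries. Its level there was 3.06 UPM in Ctrl and 10.9 in cKO (1.83, 0.75 to 2.98), and after thinning 3 of 180 and 13 of 101 of these cells held an Irx6 UMI. Irx2 in the same cells held 25 UMIs in Ctrl and 2 in cKO, which gave a log2 ratio of −2.69 with a wide interval from −5.81 to −0.68. These were the 1 higher and 1 lower of 5 measured members past 2-fold, where 2.16% of genes were higher and 9.08% lower. In the same cells anterior second heart field markers summed to 141 UPM in Ctrl and 44.5 in cKO, somitic markers to 48.5 and 89.0 and neuroepithelial markers to 10.5 and 6.93, beside 663 and 603 for the 6 markers of the gate, and their part in these values was not tested. Irx6 gave 0 UMIs in aSHF-like and pSHF-like cells of all libraries in which these groups were measured, with exact upper bounds of 1.90 to 6.26 UPM.

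Irx4, the ventricular member, had more of its few E9.5 UMIs in mesenchyme-like cells, by far the largest group, than in any other group. They were 45 of 97 in Ctrl E9.5 and 99 of 115 in cKO E9.5. The level of Irx4 per UMI of the group was higher elsewhere. In Ctrl E9.5 it was at 9.43 UPM in endodermal-like cells (15 UMIs, 5.28 to 15.6), 3.50 in cardiomyocyte-like cells (12 UMIs, 1.81 to 6.11) and 1.84 in the other epithelial-like cells (21 UMIs), against 0.904 in mesenchyme-like cells, and neighbours in this order overlapped. It held 0 UMIs in aSHF-like, pSHF-like, branchiomeric muscle-like, neuroepithelial-like and MLP-like cells of that library, with exact upper bounds of 0.900 to 6.26 UPM. In cardiomyocyte-like cells of cKO E9.5 it held 2 UMIs, or 0.791 UPM (log2 ratio −2.15, −5.35 to 0.02).

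Between the Ctrl libraries of the 2 stages, Irx2 was higher at E9.5, with 22.5 against 12.7 UPM (0.83, 0.66 to 1.003), and Irx1 was lower, with 38.3 against 50.6 UPM (−0.40, −0.50 to −0.31). Irx3 was at 89.5 against 100 UPM (−0.16, −0.23 to −0.10, and −0.03 with the classes weighted as at E8.5) and Irx5 at 44.3 against 53.5 UPM (−0.27, −0.36 to −0.18). The median of all genes was 0.39, so that Irx1, Irx3 and Irx5 were all below it and Irx2 above. Of 6 members 1 passed 2-fold upward, Irx6 with 26 against 3 UMIs (1.21, −0.49 to 3.58), and 0 downward, where 17.9% of genes were higher and 2.98% lower by 2-fold. In MLP-like cells Irx1 was at 48.1 against 73.8 UPM (−0.62, −0.89 to −0.35) and Irx2 at 41.7 against 21.4 UPM (0.96, 0.58 to 1.36). Irx1 was thus lower and Irx2 higher at E9.5 in the progenitor group as well. Irx3 and Irx5 did not follow their lower values over all cells there. Irx3 was at 147 UPM against 114 and Irx5 at 65.2 against 60.4. The sum of Irx3, Irx5 and Irx6 had a log2 ratio of 0.29 in MLP-like cells, and −0.000132 with TMM scaling, beside a median of 0.30 over all genes.

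In cardiomyocyte-like cells all 4 abundant members were lower at E9.5 than at E8.5 in Ctrl. Irx1 was at 13.7 against 44.1 UPM (−1.69, −2.24 to −1.15), and was the 1 of 4 measured members past 2-fold, where 2.64% of genes were lower by that much. Irx2 was at 11.1 against 21.8 UPM (−0.98, −1.65 to −0.30), Irx3 at 79.0 against 106 (−0.42, −0.69 to −0.15) and Irx5 at 30.3 against 45.2 (−0.58, −1.01 to −0.14). The 8 cardiomyocyte gate markers summed to 4282 UPM at E8.5 and 11930 at E9.5 in the same cells, and the part of this difference in the Irx levels was not tested. In mesenchyme-like cells Irx4 held 45 UMIs at E9.5 and 0 at E8.5, at least 2.96-fold higher against a floor of 3 UMIs over the group. It was the 1 of 5 measured members past 2-fold there, beside 13.8% of all genes.

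The stage comparison in the libraries labelled cKO had other values. Irx3 was at 60.8 UPM at E9.5 against 114 at E8.5 (−0.91, −0.97 to −0.84), Irx5 at 27 against 50.8 (−0.91, −1.01 to −0.81), Irx1 at 23.4 against 40.4 (−0.79, −0.89 to −0.68) and Irx2 at 18.2 against 19.4 (−0.09, −0.23 to 0.05). Of 6 members 2 were higher by 2-fold, Irx4 at 1.10 against 0.428 UPM (1.36, 0.47 to 2.40) and Irx6 at 0.497 against 0.233 UPM (1.09, −0.13 to 2.60), and 0 lower, where 11.3% of genes were higher and 5.94% lower. In cardiomyocyte-like cells 3 of 4 members were lower by 2-fold, beside 3.70% of genes, with Irx1 at 11.5 against 36.6 UPM (−1.68), Irx2 at 14.2 against 42.9 (−1.59) and Irx3 at 48.2 against 134 (−1.48). In mesenchyme-like cells Irx4 was the 1 of 5 higher, with 99 against 4 UMIs, beside 11.1% of genes. These comparisons share libraries with those above and are not independent of them.

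The clusters were compared by the share of Iroquois UMIs that came from Irx1, Irx2 and Irx4. UMIs count captured 3′ ends, so that a share compares libraries and groups, not the absolute output of the genes. Over all cells the share at E8.5 was 29.4% in Ctrl (28.2 to 30.6) and 26.8% in cKO (25.6 to 27.9), and at E9.5 it was 31.6% (30.9 to 32.3) and 32.6% (31.8 to 33.4). Between groups it varied far more. It was 55.9% in endodermal-like and 49.2% in all epithelial-like cells of Ctrl E9.5, 35.8% in neuroepithelial-like, 29.7% in MLP-like, 27.4% in mesenchyme-like and 20.5% in cardiomyocyte-like cells. Branchiomeric muscle-like and endothelial-like cells had the lowest shares, 12.7% (10.0 to 15.9) and 12.5% (9.61 to 15.8). The few pSHF-like cells overlapped both, at 16.85% (9.75 to 26.3). The 73 neuronal-like cells of cKO E9.5 had 59.1% (50.9 to 66.9).

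**Figure D3:**
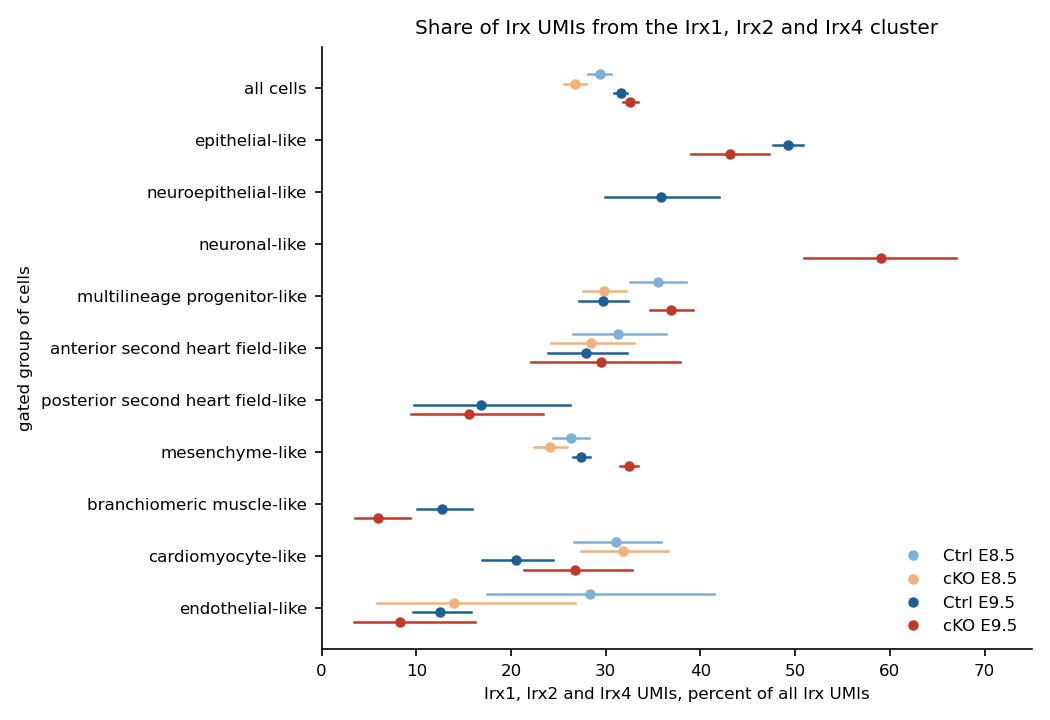
Share of all Iroquois UMIs that came from Irx1, Irx2 and Irx4, in percent (horizontal axis), for all cells and each gated group (vertical axis), with 1 point per library and Clopper-Pearson 95% intervals. Epithelial-like and neuronal-like cells lie above 40%, and endothelial-like and pSHF-like cells at E9.5 and branchiomeric muscle-like cells below 20%.

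Between genotypes at E9.5, the share of the Irx1 cluster was higher in cKO in MLP-like cells, at 36.9% (34.6 to 39.2) against 29.7% (27.2 to 32.4), and in mesenchyme-like cells, at 32.4% (31.5 to 33.4) against 27.4% (26.5 to 28.3). It was lower in cKO in epithelial-like cells, at 43.1% (39.0 to 47.2) against 49.2% (47.7 to 50.8), and in branchiomeric muscle-like cells, at 5.94% (3.50 to 9.35) against 12.7%. At E8.5 the MLP-like share went the other way, 29.8% in cKO (27.6 to 32.2) against 35.5% in Ctrl (32.6 to 38.5).

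Inside the clusters, Irx2 made up 20.03% of the Irx1 and Irx2 UMIs in Ctrl and 32.4% in cKO at E8.5, and 37.0% in Ctrl and 43.8% in cKO at E9.5, and no pair of these intervals overlapped. In mesenchyme-like cells the same share was 15.1%, 24.7%, 30.3% and 41.8%. Irx5, by contrast, stayed between 30.8% and 34.8% of the Irx3 and Irx5 UMIs over all cells. Within groups the Irx5 share was less steady, at 36.8%, 33.3%, 36.5% and 31.9% in mesenchyme-like cells in the same order. In MLP-like cells it was 34.7%, 31.4%, 30.7% and 25.5%. Over all cells and in mesenchyme-like cells, the proportion within the Irx1 and Irx2 pair therefore moved more between libraries than that within the Irx3 and Irx5 pair. These shares need no scaling between libraries.

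Single cells with UMIs of both genes of a pair were counted after thinning and set beside the product of the single shares. In mesenchyme-like cells of Ctrl E9.5, 6.04% of cells held both Irx1 and Irx2, 1.89 times the product (1.62 to 2.19), and in cKO E9.5 4.55%, 2.12 times (1.83 to 2.45). Irx2 was found in 22.5% of mesenchyme-like cells with Irx1 and in 8.05% of those without it in Ctrl E9.5. Irx3 and Irx5 were together in 22.8% of these cells in Ctrl E9.5, 1.14 times the product (1.06 to 1.22), and in 10.99% in cKO E9.5, 1.26 times (1.15 to 1.38). This ratio cannot exceed 1 over the larger single share, and Irx3 was in 53.4% of the Ctrl cells, so that the ratios of the pairs are not compared with each other. The intervals cover the counting of cells within 1 library. At E8.5 the Irx1 and Irx2 ratios were 1.48 and 1.32, with intervals that included 1. In MLP-like cells the intervals of the plotted pairs included 1 in all 4 libraries.

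**Figure D4:**
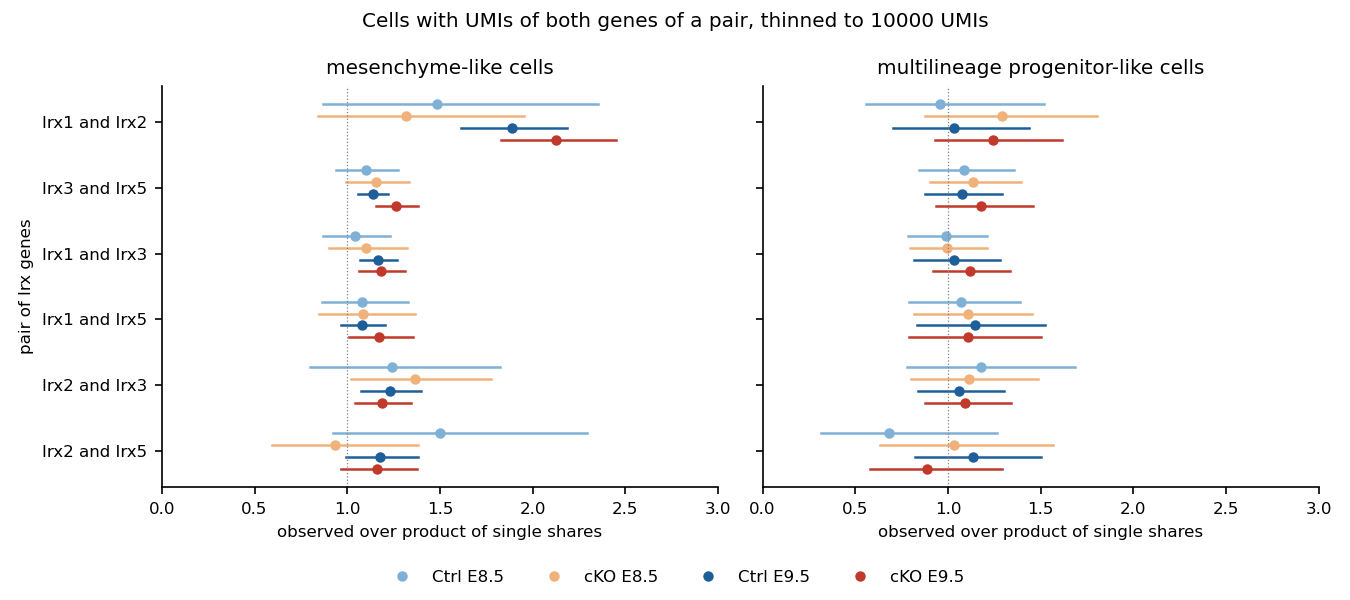
Share of cells with UMIs of both genes of a pair, divided by the product of the single shares (horizontal axis), for 6 pairs of Irx genes (vertical axis) in mesenchyme-like and MLP-like cells thinned to 10000 UMIs, with 95% counting intervals per library. The Irx1 and Irx2 pair in mesenchyme-like cells at E9.5 reaches 1.89 and 2.12, while all intervals of MLP-like cells include 1.

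Splitting the mesodermal and unplaced cells by a single gene, among 9 genes chosen after the files had been read, gave a further description. Only the splits by Meox1, Foxd1, Hoxb1 and Tbx1 are given, and those by Foxf2, Crym, Isl1, Lhx2 and Tlx1 are not reported here. The cells split include both mesenchyme-like and MLP-like cells, whose Irx levels differ, and the part of this in the splits was not tested. In cells with a Meox1 UMI, a gene of the paraxial mesoderm, Irx1 was at 73.0 UPM against 43.4 without in Ctrl and 60.4 against 31.8 in cKO at E8.5, and 59.8 against 28.5 in Ctrl and 36.3 against 14.5 in cKO at E9.5. Irx2 was also higher with Meox1 at E9.5, at 24.7 against 15.6 UPM in Ctrl and 28.7 against 10.7 in cKO, and Irx3 was at 100 against 91.2 UPM in Ctrl E9.5. In cells with a UMI of Foxd1, a forkhead gene that was among the leading genes of mesenchyme-like cells, Irx2 was at 6.94 UPM against 25.7 without in Ctrl E9.5 and 5.59 against 26.5 in cKO E9.5. The other members were lower in these cells too, with Irx1 at 25.2 against 43.3 UPM, Irx3 at 75 against 106.9 and Irx5 at 45.6 against 52.1 in Ctrl E9.5, and Irx1 at 13.4 against 30.2 in cKO E9.5. In cells with a UMI of Hoxb1, a gene of the posterior heart field, Irx2 was at 36.4 against 9.06 UPM in Ctrl and 39.3 against 16.8 in cKO at E8.5, and 46.3 against 17.0 in Ctrl and 39.2 against 16.1 in cKO at E9.5. Irx1 and Irx3 were also higher in these cells at E9.5, at 66.3 against 34.8 and 159 against 91.7 UPM in Ctrl. The pSHF-like group, whose panel includes Hoxb1, did not have these high levels. In Ctrl E9.5 its 31 cells held Irx2 at 13.6 UPM (5.86 to 26.7), Irx1 at 11.9 and Irx3 at 95. A Hoxb1 UMI therefore does not stand for that group. Cells with and without a Tbx1 UMI had closer values, with Irx1 at 32.9 against 39.4 UPM and Irx3 at 89.7 against 98.5 in Ctrl E9.5. Irx1 was thus higher with Meox1, and Irx2 higher with Hoxb1 and lower with Foxd1, in each library given, but the splits moved other members as well.

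Across the 15 gated groups of both Ctrl libraries, the gene with the pattern most like Irx3 among 10866 genes was Irx5 (Pearson correlation of log2(UPM + 10) 0.90), followed by Cep164 (0.88) and Gpr137b (0.86), and for Irx5 it was Irx3, then Dnaaf2 (0.86) and Hist1h4i (0.85). For Irx1, Halr1 (0.88) and Gbx2 (0.84) were among the nearest 3, and for Irx2 they were Osbpl6 (0.91), Amer2 (0.91) and Gid4 (0.89). Irx1 and Irx2 correlated at 0.63. Between the clusters, Irx1 correlated with Irx5 at 0.72 and with Irx3 at 0.63, and Irx2 with Irx3 at 0.615 and with Irx5 at 0.495. Likeness was thus not confined to members of the same cluster. For Irx4 the nearest 3 were Cystm1 (0.91), 2310030G06Rik (0.90) and F3 (0.89), and for Irx6 Postn (0.89), Hlx (0.89) and Kcnj12 (0.89), on 101 and 21 UMIs, too few to read. The points share 2 libraries and differ in depth, and the values are a description.

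Of related genes, the 12 other TALE homeobox genes on a list (the Meis, Pbx, Pknox and Tgif genes and Mkx) were all measured, and 0 passed 2-fold over all cells in the genotype comparisons or between Ctrl stages. Their median log2 ratio was 0.17 at E8.5, −0.18 at E9.5 and 0.46 between stages, against 0.04, −0.26 and 0.39 over all genes. Of 12 known partners and targets of Iroquois proteins, 7 were measured at E8.5. Myl2, a ventricular myosin light chain, was at 15.9 UPM in cKO against 4.91 in Ctrl (1.69, 1.40 to 1.99), and Nppa, the atrial natriuretic peptide gene, at 2.29 against 0.555 (2.05, 1.19 to 3.00). These were the 2 of 7 higher by 2-fold and none was lower, where 2.92% of all genes were higher and 1.30% lower. In cardiomyocyte-like cells, whose 8 gate markers summed to 5908 UPM in cKO and 4282 in Ctrl, the log2 ratios were 2.23 and 2.36. At E9.5, 10 were measured and 2 were lower by 2-fold, where 9.80% of all genes were, among them Gja5, a connexin of conduction tissue and arterial endothelium, with 19 against 102 UMIs (−2.58, −3.37 to −1.86). At that stage endothelial-like cells were 7.30% of Ctrl and 1.74% of cKO cells, and the part of this in the Gja5 value was not tested. Between Ctrl stages 5 of 9 were higher by 2-fold, with Cxcl12, a chemokine gene, at 167 against 22.2 UPM (2.91), Gata3 at 15.8 against 3.13 UPM (2.33) and Trps1 at 10.5 against 3.57 UPM (1.56), beside Gja5 and Kcnip2 on 1 and 2 UMIs at E8.5. Over all genes 17.9% were higher by 2-fold in that comparison.

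Of the genes near the clusters, 6 were measured in all libraries and 0 passed 2-fold over all cells. In gated groups Rpgrip1l, a cilium gene beside Fto, was higher in MLP-like cells of cKO E9.5, at 8.92 against 3.90 UPM (1.19, 0.40 to 2.07), where 2.77% of genes were, and Irx3os was lower in mesenchyme-like cells between Ctrl stages, at 1.33 against 2.85 UPM (−1.11, −1.76 to −0.41), where 4.29% were. Irx3os, the transcript antisense to Irx3, held 69 UMIs in both E8.5 libraries and 146 (Ctrl) and 142 (cKO) at E9.5, or 2.73, 2.68, 1.55 and 1.36 UPM. Its log2 ratio at E9.5 was −0.19 (−0.53 to 0.15), beside −0.56 for Irx3, and between Ctrl stages it was −0.82 (−1.24 to −0.39). Fto, whose introns hold long-range enhancers of Irx3, was at 24.4 against 29.0 UPM at E9.5 (−0.24, −0.32 to −0.17), at the median of all genes. Ndufs6, a mitochondrial complex I subunit gene beyond Irx4, was at 346 against 318 UPM (0.13, 0.10 to 0.15), and Mmp2, a matrix metalloproteinase gene beyond Irx6, at 30.7 against 37.0 (−0.27, −0.34 to −0.20).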

How the data were processed

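Cells were sorted for GFP and viability from pooled embryos and profiled with the 10x Genomics 3′ chemistry, 1 library per group. The counts the authors deposited are unnormalized UMI counts, by gene and cell barcode, made with Cell Ranger 3.1.0 per the submitters' processing notes (3.0.2 in the headers of the E8.5 matrices) against mm10, with barcodes already filtered. No further filter was set here. From these counts, UMIs were summed over all cells or over gated cells and divided by the total over the 27514 genes shared by both gene tables, as UMIs per 1000000 (UPM). Library totals were 25391654 to 104773150 UMIs, of which 99.4% to 99.9% fell in shared genes.

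With 1 library per group no test was run and no p-value is given. Intervals are 95% and exact: Poisson for UPM, conditional binomial for log2 ratios and Clopper-Pearson for shares. They cover counting error only. Zero counts in 1 group were compared against a floor of 3 UMIs. A gene was counted as past 2-fold in a comparison when it held at least 20 UMIs over both libraries.

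Cells were gated on 90 markers of 16 classes, first epithelial, endothelial, cardiomyocyte, neural, neural crest and blood classes, then mesodermal classes. Cells passing more than 1 first-step gate (2 to 61 per library) were left out of the groups, as were ties. No doublet caller was run. Thinning drew 10000 UMIs per cell with a fixed seed. Likeness used log2(UPM + 10) over groups of at least 30 cells, among genes with at least 200 UMIs and outside the gate markers. The genes named are the 6 members, the 3 genes most like each and, of each list, those past 2-fold and up to 3 more with the most UMIs. Of the genes this rule gives, 2 are not reported here. The 9 genes of the splits, and Fto, Rpgrip1l, Irx3os and Crnde beside Irx3 and Irx5, fall outside the rule and were named after their values were seen. The members, lists and gates were chosen with earlier results of these data known.

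Alternatives were edgeR TMM and median-of-ratios scaling, cell filters, equal weight per cell, thinning, other gate rules and other totals. Python 3.11.15 with numpy 2.4.6, scipy 1.17.1, pandas 2.3.3 and matplotlib 3.10.9, and R 4.3.3 with edgeR 4.0.16, were used. The interval code was tested on simulated data. Coordinates and promoter sequences are those of RefSeq tables for GRCm38.p6.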

Additional observations from a re-analysis of the deposited data

Results flagged for a closer look

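The difference between cKO and Ctrl ran in opposite directions at the 2 stages for Irx2 and Irx3 over all cells and for Irx3 in 3 gated groups. Irx2 over all cells was 0.61 on the log2 scale at E8.5 and −0.31 at E9.5, a difference of −0.92. Relative to the median of all genes, or with TMM scaling, the E9.5 value of Irx2 was −0.05, near 0, so that a lower value of Irx2 at E9.5 rests on unscaled totals. Irx3 over all cells went from 0.19 to −0.56, a difference of −0.75. In aSHF-like cells Irx3 went from 0.63 to −0.55 (difference −1.18), in cardiomyocyte-like cells from 0.35 to −0.71 (−1.06) and in MLP-like cells from 0.28 to −0.57 (−0.85). With 1 library per genotype and stage these differences between stages were not tested, and the median of all genes over all cells itself went from 0.04 to −0.26. Stage, dissection, gene table and library cannot be told apart here.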

How the results depend on the processing

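No paired analysis was possible because each group was 1 library. Shares of cells depend on how they are counted, and 71 of 72 left their intervals with at least 2 UMIs asked, 62 with cells thinned to 5000 UMIs and 59 unthinned. Scaling moved 12 of 23 ratios over all cells and 23 (TMM) or 24 (median-of-ratios) of 62 in gated groups. Over all cells at E9.5, edgeR TMM and median-of-ratios scaling gave cKO/Ctrl log2 ratios of −0.46 and −0.45 for Irx1, −0.053 and −0.0486 for Irx2, −0.31 and −0.30 for Irx3, −0.46 and −0.46 for Irx5, −0.28 and −0.28 for the Irx1, Irx2 and Irx4 sum and −0.35 and −0.35 for the Irx3, Irx5 and Irx6 sum. Between Ctrl stages they gave −0.76 and −0.79 for Irx1, 0.47 and 0.45 for Irx2, −0.52 and −0.54 for Irx3, −0.63 and −0.65 for Irx5, −0.40 and −0.43 for the first sum and −0.55 and −0.58 for the second. These scalings shift all genes alike, and none of these values changed sign. In MLP-like cells, the first sum turned to 0.0273 and 0.0321 in cKO/Ctrl at E9.5, and the second sum to −0.000132 and −0.012 between Ctrl stages. With equal weight per cell, the ratio between Ctrl stages was −0.52 for Irx1 and −0.16 for the first sum, and the share of Irx1, Irx2 and Irx4 at E9.5 was 27.3% in Ctrl and 29.7% in cKO. With gated classes weighted as in the denominator library, chosen after seeing the data, cKO/Ctrl at E9.5 was −0.84 for Irx1, −0.60 for the first sum and −0.65 for the second, and the ratio between Ctrl stages was −0.58, −0.20 and −0.0863, with −0.0285 for Irx3. Asking 2 UMIs of each gate marker, also chosen after seeing the data, moved 15 of 63 ratios in gated groups out of their intervals. Leaving out barcodes under 5000 UMIs and the top 5% kept all 23 ratios over all cells and all 87 in gated groups within their intervals. Without the minimum of 20 UMIs, genes past 2-fold over all cells were 8.16% higher and 8.47% lower at E8.5, 8.14% higher at E9.5 and 16.2% lower between Ctrl stages. With Spearman correlation the gene most like Irx3 was Tshz3 (0.85) and that most like Irx1 was Halr1 (0.96). Irx4 and Irx6 are limited by depth.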
